A study of Mus musculus with 45 samples.

Results

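The 6 mouse genes described here are Nodal and Gdf3, which encode ligands of the TGF-beta family, Tdgf1 (Cripto), the co-receptor of both, Furin and Pcsk6 (PACE4), proprotein convertases that can cut the Nodal precursor, and Acvr2b, a type II activin receptor. They were taken by gene symbol, as the rows so named among the 15997 genes of the series. All 6 had a row in the tables of E5.5 and E5.75, and 5 had one at E5.25, where Nodal was absent from the table. The study examined gene expression along the proximal-distal axis of embryos shortly after implantation. Each embryo was frozen and sectioned, pieces were taken from the numbered sections with a laser microscope, and their total RNA went through Smart-seq2, which copies whole transcripts from very little material. The labels describe 45 samples, all untreated. No strain or genotype is given in them, and whether section 1 is proximal or distal is left unsaid.

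The samples used are 2 VE libraries of E5.75 (VE being the usual abbreviation of visceral endoderm), taken from sections 6 and 7, and sections of embryos at E5.25 (7 sections), E5.5 (9 section numbers) and E5.75 (17 sections). Not analysed here were sections 9 and 13 of that stage. At E5.5 parts A and B of 7 sections were joined by the authors into 1 value, in a way not stated. The labels do not say how many embryos the sections of a stage came from, so a p-value here speaks of the spread among sections and not among embryos. The fits and permutations treat sections as independent. Where neighbouring sections are alike, the p-values can be too small. All levels are the deposited log2(FPKM + 1) values or FPKM, fragments per kilobase of transcript scaled to library size, calculated back from them. FPKM is per length, so levels of different genes can be set side by side within a stage. The tables of the 3 stages were normalized apart, and no level is compared between them. A fitted change is the level at the last section minus that at the first on a straight line through the sections (log2), so a positive one means higher in high-numbered sections.

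Nodal is made as an inactive precursor and needs to be cut by convertases of the furin family. In the mouse embryo at these stages the epiblast is known as its main source and the extraembryonic ectoderm, the neighbouring layer, as a source of Furin and Pcsk6. Outside the cell Nodal binds Cripto together with type I and type II activin receptors, and Smad2 and Smad3 carry the signal to the nucleus, where Foxh1 is a partner at target genes. Nodal signalling is also known to sustain Bmp4 in the extraembryonic ectoderm, and Bmp4 in turn to act on the epiblast. This exchange is why the places of the ligand and of its enzymes along the axis are set side by side here.

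The members' annotated places are on the mm10 (GRCm38) assembly, from GENCODE. Nodal (ENSMUSG00000037171.6) is at chr10:61417972-61425338 on the plus strand and Tdgf1 (ENSMUSG00000032494.12) at chr9:110939603-110946158 on the minus strand. Gdf3 (ENSMUSG00000030117.5) is at chr6:122605403-122610087 on the minus strand and Acvr2b (ENSMUSG00000061393.14) at chr9:119402118-119434995 on the plus strand. Both convertase genes lie on chromosome 7, Furin (ENSMUSG00000030530.15) at chr7:80388585-80405436 on the minus strand and Pcsk6 (ENSMUSG00000030513.14) at chr7:65861734-66050386 on the plus strand. Smart-seq2 keeps no strand, so reads of overlapping genes cannot be told apart. Exons of Furin overlap the antisense gene Gm44851, and exons of Pcsk6 overlap Gm45213 on the same strand, which makes both convertase values uncertain to that extent.

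The stretches upstream of the start are shown for the 4 members whose values changed along the E5.75 sections, since the promoters of these genes differ in base composition. They are from RefSeq (GRCm38.p6), 5′ to 3′ on the gene's strand, and end at the base before the start or, for Pcsk6, before an exon that begins inside the window. Capitals mark the searched motifs, CAGACA (a SMAD element) and GGGCGG (a GC box), on either strand. The Nodal stretch is chr10:61417722-61417971, plus strand. The Tdgf1 stretch is chr9:110946159-110946408, minus strand. The Furin stretch is chr7:80402813-80403062, minus strand, upstream of a RefSeq start that lies inside the GENCODE gene. The Pcsk6 stretch is chr7:65861886-65862028, plus strand. It lies before a RefSeq start but wholly inside the GENCODE gene, which begins at 65861734.
Nodal: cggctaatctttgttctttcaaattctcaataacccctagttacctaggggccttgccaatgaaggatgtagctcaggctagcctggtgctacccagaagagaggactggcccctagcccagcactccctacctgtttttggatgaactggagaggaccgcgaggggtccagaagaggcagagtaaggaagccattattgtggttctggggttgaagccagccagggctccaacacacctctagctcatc
Tdgf1: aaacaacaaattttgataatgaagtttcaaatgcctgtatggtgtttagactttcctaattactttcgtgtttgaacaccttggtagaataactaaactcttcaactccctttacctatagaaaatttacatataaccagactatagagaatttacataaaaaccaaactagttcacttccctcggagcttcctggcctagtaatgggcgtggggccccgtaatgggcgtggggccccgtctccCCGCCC
Furin: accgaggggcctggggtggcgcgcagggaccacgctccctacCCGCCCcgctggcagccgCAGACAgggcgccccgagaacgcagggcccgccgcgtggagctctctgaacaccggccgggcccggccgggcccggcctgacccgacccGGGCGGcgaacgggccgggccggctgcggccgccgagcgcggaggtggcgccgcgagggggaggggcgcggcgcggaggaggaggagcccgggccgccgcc
Pcsk6: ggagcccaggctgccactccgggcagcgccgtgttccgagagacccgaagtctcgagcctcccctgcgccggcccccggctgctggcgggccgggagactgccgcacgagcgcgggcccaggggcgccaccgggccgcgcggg
Over the full 250 bases, the Nodal stretch holds 3 CpG dinucleotides and that of Tdgf1 holds 7, near the median of 6 over 32851 RefSeq mouse promoters. The Furin and Pcsk6 stretches hold 40 each, more than 98.7% of those promoters. The Furin table entry has another start, with 6 CpG in its 250 bases. The first bases after that other start were found in 1 GENCODE transcript of Furin, and those after the printed stretch in 0. A GC box, found in 32.7% of the promoters, occurs at 2 places in the Furin stretch and at 1 in that of Tdgf1, and the Pcsk6 window has 2, of which 1 runs across the end of the printed part and 1 lies beyond it. CAGACA, found in 17.1%, occurs in the Furin stretch and upstream of the other Furin start. AATNCACA, the Foxh1 element, found in 3.18%, occurs in none of these 250-base windows on either strand, and TATAAA, found in 12.4%, occurs in 1 window, that of the other Furin start. Acvr2b, whose window has 24 CpG and 3 GC boxes, did not pass the test and is not printed.

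At E5.75 the ligands and the co-receptor lay in low-numbered sections and both convertases were highest in high-numbered ones. Nodal was listed at 4.47 in section 1, 3.01 in section 3, 2.71 in section 6, 1.80 in section 7 and 3.15 in section 8 (log2(FPKM + 1)), and at 0 in sections 2, 4 and 5 and in all 9 sections from 10 to 19. It thus came and went among the low-numbered sections and was never listed above 0 in the others. A listing of 0 in these tables can be a failed estimate. Nodal passed the limma test along the 17 sections, with a fitted change of -2.64 ± 0.86 (SE) between the ends of the series (Benjamini-Hochberg adjusted p = 0.0315). The call was lost without section 1 (-1.83, adjusted p = 0.128), where Nodal was highest and 52.8% of the summed FPKM was Rn45s, which encodes precursor ribosomal RNA. Leaving out section 3 (adjusted p = 0.0623) or, alone, section 18 (adjusted p = 0.0508) ended it too, as did leaving out sections 1 and 2 together (-2.17, adjusted p = 0.0634) and adding detected genes to the fit (-2.30, adjusted p = 0.345).

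**Figure D1:**
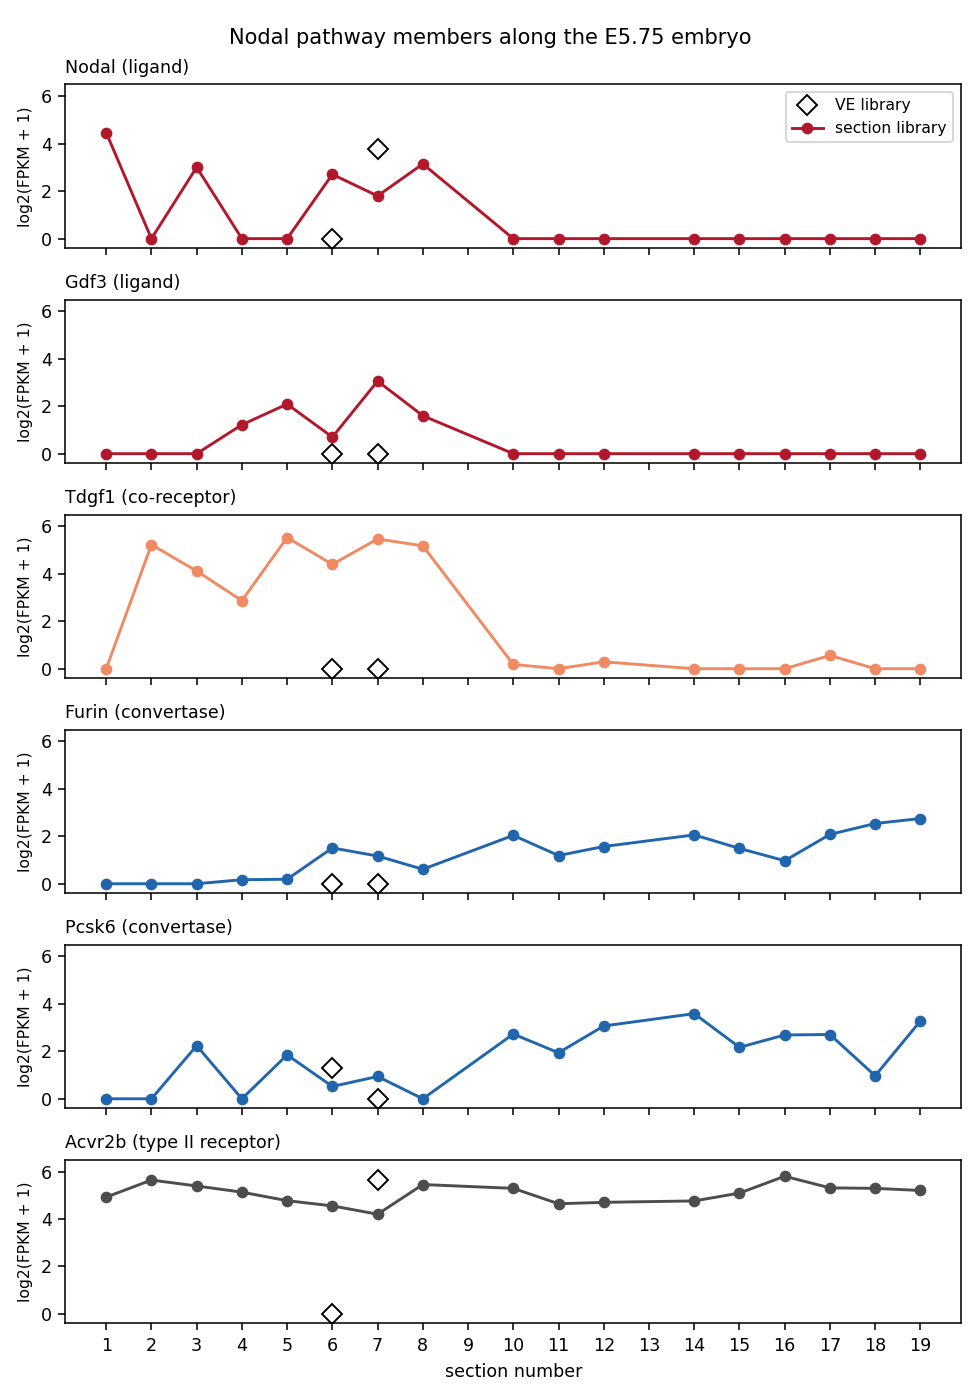
Level of each member (vertical axis, log2(FPKM + 1)) by section number (horizontal axis) at E5.75; open diamonds are the 2 VE libraries and filled points the 17 section libraries, 1 library each. Nodal and Gdf3 are at 0 in all 9 sections from 10 on, Tdgf1 is at or below 0.56 there, and Furin and Pcsk6 are at 0.97 or above in each of them.

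Gdf3, a ligand that also signals through Cripto, was listed at 1.22 in section 4, 2.09 in section 5, 0.70 in section 6, 3.06 in section 7 and 1.60 in section 8, and at 0 in sections 1 to 3 and from section 10 on. Its nonzero values formed 1 unbroken stretch, unlike those of Nodal. The fitted change was -1.03 ± 0.63 and did not pass (adjusted p = 0.243, limma). Nodal and Gdf3 were both above 0 in sections 6, 7 and 8 only.

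Tdgf1 was listed at 0, 5.23, 4.12, 2.87, 5.53, 4.40, 5.47 and 5.18 in sections 1 to 8. From section 10 to section 19 it was at 0.18, 0, 0.29, 0, 0, 0, 0.56, 0 and 0. Apart from section 1, every low-numbered section lay far above every high-numbered one. Its fall of -4.87 ± 1.22 passed the test (adjusted p = 0.00716, limma) and kept passing in all 30 alternatives (adjusted p from 0.000146 to 0.0216). Tdgf1 reached 1 FPKM only in sections 2 to 8, so it entered the test only through the side where it was high. By FPKM, 99.6% of the summed Tdgf1 level lay below section 10, and 100% of that of Nodal and of Gdf3.

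Furin was listed at 0 in sections 1, 2 and 3, at 0.17, 0.19, 1.51, 1.17 and 0.61 in sections 4 to 8, and at 2.04, 1.19, 1.57, 2.06, 1.49, 0.97, 2.08, 2.54 and 2.75 in the sections from 10 to 19. It was above 0 in 14 of 17 sections and highest in section 19. Section 6 exceeded 3 of the 9 high-numbered sections, so the ranges on the 2 sides overlapped. The rise of 2.41 ± 0.53 passed (adjusted p = 0.00292, limma). The same call was lost with a covariate for detection, the count of genes at 1 FPKM or more (2.15, adjusted p = 0.095), and the correlation of Furin with detected genes was 0.68 over the 17 sections, which share that depth measure.

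Pcsk6 was listed at 0, 0, 2.24, 0, 1.85, 0.52, 0.94 and 0 in sections 1 to 8. In the 9 sections from 10 to 19 it was at 2.73, 1.94, 3.07, 3.59, 2.17, 2.69, 2.71, 0.97 and 3.28. Sections 11, 15 and 18 lay below section 3, so the 2 sides overlapped. The rise of 2.55 ± 0.76 passed (adjusted p = 0.021, limma). It was lost with quantile normalization (1.82, adjusted p = 0.112), with a detection covariate (2.24, adjusted p = 0.268) and without sections 1 and 2 (1.88, adjusted p = 0.125), the pair with the fewest detected genes, 3211 and 3424 against 5303 to 8217 in the other sections, and, by a narrow margin, when either of them was dropped alone (2.39, adjusted p = 0.0514, without section 1 and 2.37, adjusted p = 0.0509, without section 2). Of the summed FPKM, 13% of Furin and 13.1% of Pcsk6 lay below section 10.

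Acvr2b, the receptor that binds activins and Nodal, was listed in all 17 sections, at 4.92, 5.64, 5.39, 5.13, 4.77, 4.55, 4.20 and 5.45 in sections 1 to 8. It was at 5.29, 4.64, 4.70, 4.76, 5.09, 5.80, 5.31, 5.29 and 5.20 in the sections from 10 to 19. The 2 sides overlapped between 4.64 and 5.64, and 45.6% of its summed FPKM lay below section 10. Its change of 0.20 ± 0.52 did not pass (adjusted p = 0.81, limma), and its sign turned after rescaling to a common sum without Rn45s (-0.08) and after quantile normalization (-0.17).

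Per length, Acvr2b had the highest mean level at E5.75, 33.9 FPKM (range 17.3 to 54.7), followed by Tdgf1 at 12 FPKM (0 to 45.2). Then came Pcsk6 at 3.46 FPKM (0 to 11.1), Nodal at 2.59 FPKM (0 to 21.1), Furin at 1.76 FPKM (0 to 5.73) and Gdf3 at 0.857 FPKM (0 to 7.32). The ranges of all neighbours in that order overlap. Section by section, Acvr2b lay above Tdgf1 in 15 of 17 libraries, all but sections 5 and 7. The other neighbours were mixed, as Tdgf1 lay above Pcsk6 in 7 sections and below it in 9, and Nodal lay above Furin in 5 and below it in 11. The FPKM-weighted mean section was 3.54 for Nodal, 5.35 for Tdgf1, 6.38 for Gdf3, 10.1 for Acvr2b, 13.3 for Pcsk6 and 14.4 for Furin, where equal levels in all sections would give 9.88.

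Of the 6 members, all of which passed the filter on low values at E5.75, 4 passed the test in the background of 21% of the 11149 genes tested. Furin and Pcsk6 rose, as 18.9% of all genes did, and Nodal and Tdgf1 fell, as 2.07% did. Nodal, Tdgf1 and Gdf3 reached 1 FPKM only in sections 1 to 8, so they passed the filter only through the side where they were high. The direction of their changes thus describes where they were listed. Without the filter the adjusted p was 0.042 for Nodal and 0.00981 for Tdgf1 (limma). The median change was -0.41 over the members and 0.80 over all genes tested. Of all genes 2108 rose and 231 fell. After quantile normalization 845 rose and 500 fell with a median of 0.16, and Nodal, Tdgf1 and Furin kept their calls. The epiblast marker list (10 genes, among them Pou5f1 and Sox2) summed to between 247 and 934 FPKM in sections 1 to 8 and between 47.8 and 229 FPKM in sections 10 to 19, with 6 to 10 and 4 to 8 of its genes above 0. The extraembryonic ectoderm list (10 genes, among them Elf5 and Cdx2) summed to at most 17.9 FPKM in sections 1 to 8, against 178 to 430 FPKM from section 10 on. The ectoplacental cone list, for the outermost trophoblast, summed to 2.92 to 33.4 FPKM and to 68.2 to 1659 FPKM on the same sides. The decidua and blood list had a row for 7 of its 10 genes. Its blood genes, Hba-a1, Hbb-bs and Ptprc, had none, and Prl8a2 is also on the ectoplacental cone list. The decidua and blood list summed to at most 13.9 FPKM in sections 1 to 8, against 3.41 to 304 FPKM from section 10 on. Its highest sums were 304 FPKM in section 19, where Furin was highest, and 148 FPKM in section 14, where Pcsk6 was. The visceral and parietal endoderm lists had their highest sums in section 1, where Nodal was highest, at 619 and 423 FPKM. The part of tissue makeup in the members' changes was not tested, and fewer cells of a type and less RNA per cell cannot be told apart in sections.

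**Figure D2:**
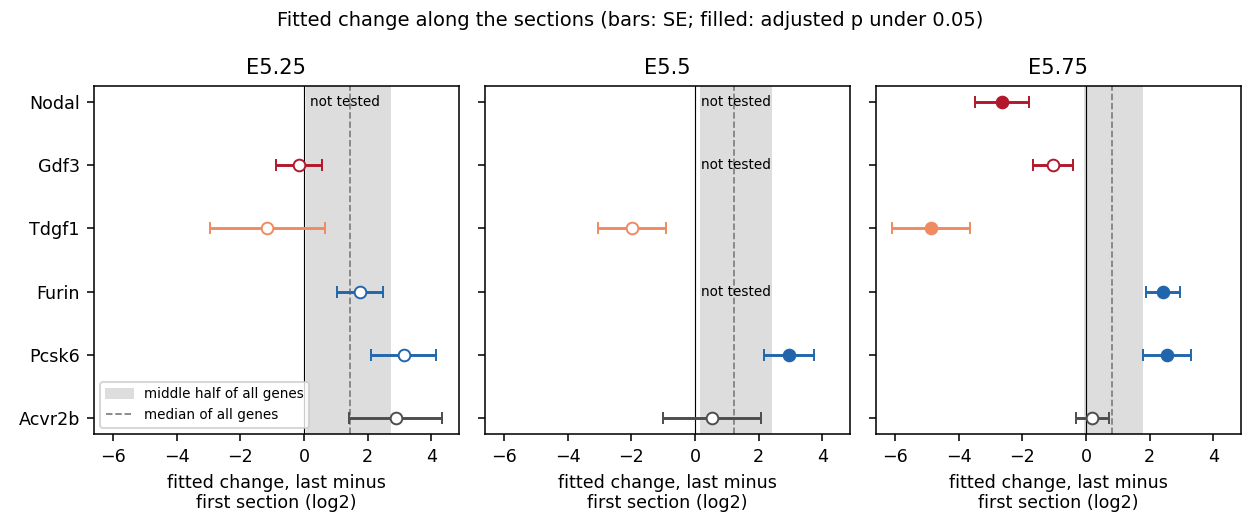
Fitted change of each member (horizontal axis, log2, last minus first section; bars are SE) at the 3 stages, filled where the adjusted p was under 0.05; the grey band is the interquartile range and the dashed line the median over all genes tested. At E5.75 Nodal (-2.64) and Tdgf1 (-4.87) lie left of the band and Furin (2.41) and Pcsk6 (2.55) right of it.

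The question of where the enzymes lie relative to the ligand was addressed within sections, as the difference of log2(FPKM + 1) between a convertase and Nodal. At E5.75 Furin minus Nodal was -4.47 in section 1, -3.01 in section 3, -1.20 in section 6, -0.64 in section 7 and -2.54 in section 8. It was 0.17 and 0.19 in sections 4 and 5, 0 in section 2, and between 0.97 and 2.75 in the 9 sections from 10 on. Nodal thus exceeded Furin in each of the 5 sections where it was listed above 0, and Furin exceeded Nodal in 11 others. Between the ends of the series the fitted change of this difference was 5.05 ± 0.99 (SE, n = 17 sections, permutation p = 8e-05, adjusted p = 0.00032 over 4 tests, 2-sided). It combines the rise of Furin (2.41) and the fall of Nodal (-2.64) given above and is not a separate result. From section 10 on, where Nodal was at 0, the difference is the level of Furin alone.

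Pcsk6 minus Nodal ran from -4.47 in section 1 to 3.59 in section 14. Pcsk6 was the lower in the same 5 sections, the higher in 10, and both were at 0 in sections 2 and 4. The fitted change was 5.18 ± 1.34 (permutation p = 0.00164, adjusted p = 0.00328). It likewise combines the rise of Pcsk6 (2.55) and the fall of Nodal (-2.64). Leaving out each section in turn gave 4.01 to 5.64 for Furin and 3.99 to 5.87 for Pcsk6, and in none of these was a call lost. With detected genes in the fit, an alternative added after the data had been seen, the change was 4.44 for Furin (permutation, adjusted p = 0.0348) and 4.54 for Pcsk6, whose call was lost (adjusted p = 0.0739).

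Nodal and Furin were both above 0 in 3 sections, 6, 7 and 8. Nodal and Pcsk6 were both above 0 in sections 3, 6 and 7. In section 6, for instance, Furin stood at 1.51 and Pcsk6 at 0.52, against 2.71 for Nodal. Furin and Pcsk6 were together in 12 sections, among them all 9 from 10 on, and their levels correlated with r = 0.59 over the 17 sections. Nodal, Tdgf1 and at least 1 convertase were thus listed in the same library in 4 sections, 3, 6, 7 and 8. Of the 5 sections with Nodal, section 1 had neither Tdgf1 nor a convertase above 0.

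**Figure D3:**
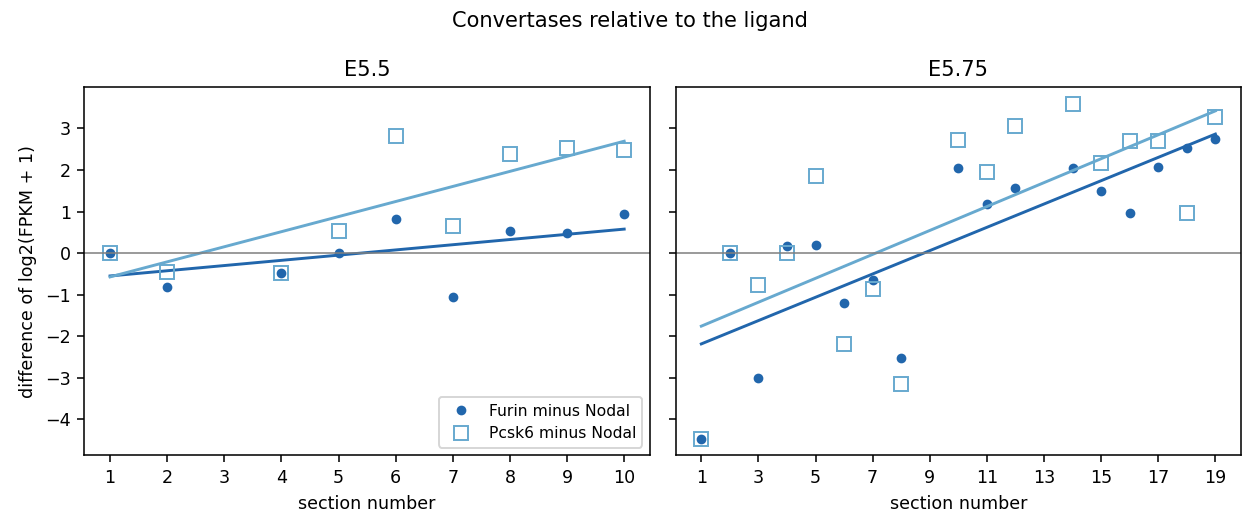
Difference of log2(FPKM + 1) between a convertase and Nodal (vertical axis) by section number (horizontal axis) at E5.5 and E5.75; filled circles are Furin, open squares Pcsk6, and lines the least-squares fits. From section 10 on at E5.75 every difference is at or above 0.97, and the lowest, -4.47, is in section 1.

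At E5.5 Nodal was barely listed. It stood at 0.81 in section 2, 0.48 in section 4, 0.07 in section 6 and 1.05 in section 7 (log2(FPKM + 1)), and at 0 in sections 1, 5, 8, 9 and both columns of section 10. Only section 7 reached 1 FPKM, so Nodal did not pass the filter. Of its summed FPKM, 50.8% lay below the midpoint of the sections, and low and high section numbers overlapped. Tested without the filter, its change was -0.31 ± 0.42 (adjusted p = 0.642, limma). Gdf3 was above 0 in section 4 alone, at 1.45.

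Tdgf1 at E5.5 was listed at 0 in section 1, 2.19 in section 2, 3.66 in section 4, 2.56 in section 5 and 0.47 in section 6, and at 0 from section 7 on. Section 1 apart, its values lay on the low-numbered side, and 98.1% of the summed FPKM lay below the midpoint. The change of -1.98 ± 1.07 did not pass (adjusted p = 0.158, limma). It passed without section 1 (-3.96, adjusted p = 0.0143, limma), in which 2288 genes were detected and Rn45s took 69.8% of the summed FPKM. Tdgf1 reached 1 FPKM in sections 2, 4 and 5 only, so it passed the filter only through the side where it was high.

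The convertases at E5.5 lay on the other side. Furin was at 0 in sections 1, 2, 4, 5 and 7, and at 0.89 in section 6, 0.52 in section 8, 0.49 in section 9, and 0.79 and 1.08 in the columns of section 10. Its levels stayed near or under 1 FPKM and it did not pass the filter. Pcsk6 was at 0, 0.36, 0 and 0.52 in sections 1, 2, 4 and 5, and at 2.90, 1.69, 2.38 and 2.52 in sections 6 to 9, with 2.78 and 2.19 in the columns of section 10. The 4 low-numbered sections and the 5 others did not overlap. Pcsk6 reached 1 FPKM in the 5 others only, so it passed the filter only through the side where it was high. Its rise of 2.96 ± 0.79 passed (n = 9 section numbers, adjusted p = 0.0115, limma). That made Pcsk6 the only called member of the 3 that passed the filter, against a background of 30.9% of 8251 genes called, 28.3% rising and 2.61% falling. Of all genes 2332 rose and 215 fell, and 844 and 324 after quantile normalization. The call was lost with quantile normalization (1.85, adjusted p = 0.122), with the detection covariate (1.60, adjusted p = 0.868) and without sections 1 and 2 (2.34, adjusted p = 0.118). Of the marker lists at E5.5, 5 of 10 tested extraembryonic ectoderm genes, 5 of 9 of the ectoplacental cone and 3 of 6 of the parietal endoderm rose. The extraembryonic ectoderm list summed to 2.59 to 84 FPKM in sections 1 to 5 and to 101 to 148 FPKM in sections 6 to 10. On the same sides the ectoplacental cone list summed to at most 33.8 and to 91.5 to 372 FPKM, and the epiblast list to 65.6 to 237 and to 36 to 77.5 FPKM. The part of tissue makeup in the rise of Pcsk6 was not tested.

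Acvr2b at E5.5 ranged widely, at 0 in section 1, 6.43 in section 2, 4.34 in section 4, 0.98 in section 5, 3.25, 3.02, 3.70 and 3.78 in sections 6 to 9, and 3.02 and 2.88 in the columns of section 10. Sections 1 and 2 next to each other held its lowest and highest values. The change of 0.54 ± 1.54 did not pass (adjusted p = 0.805, limma) and turned to -2.26 without section 1.

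**Figure D4:**
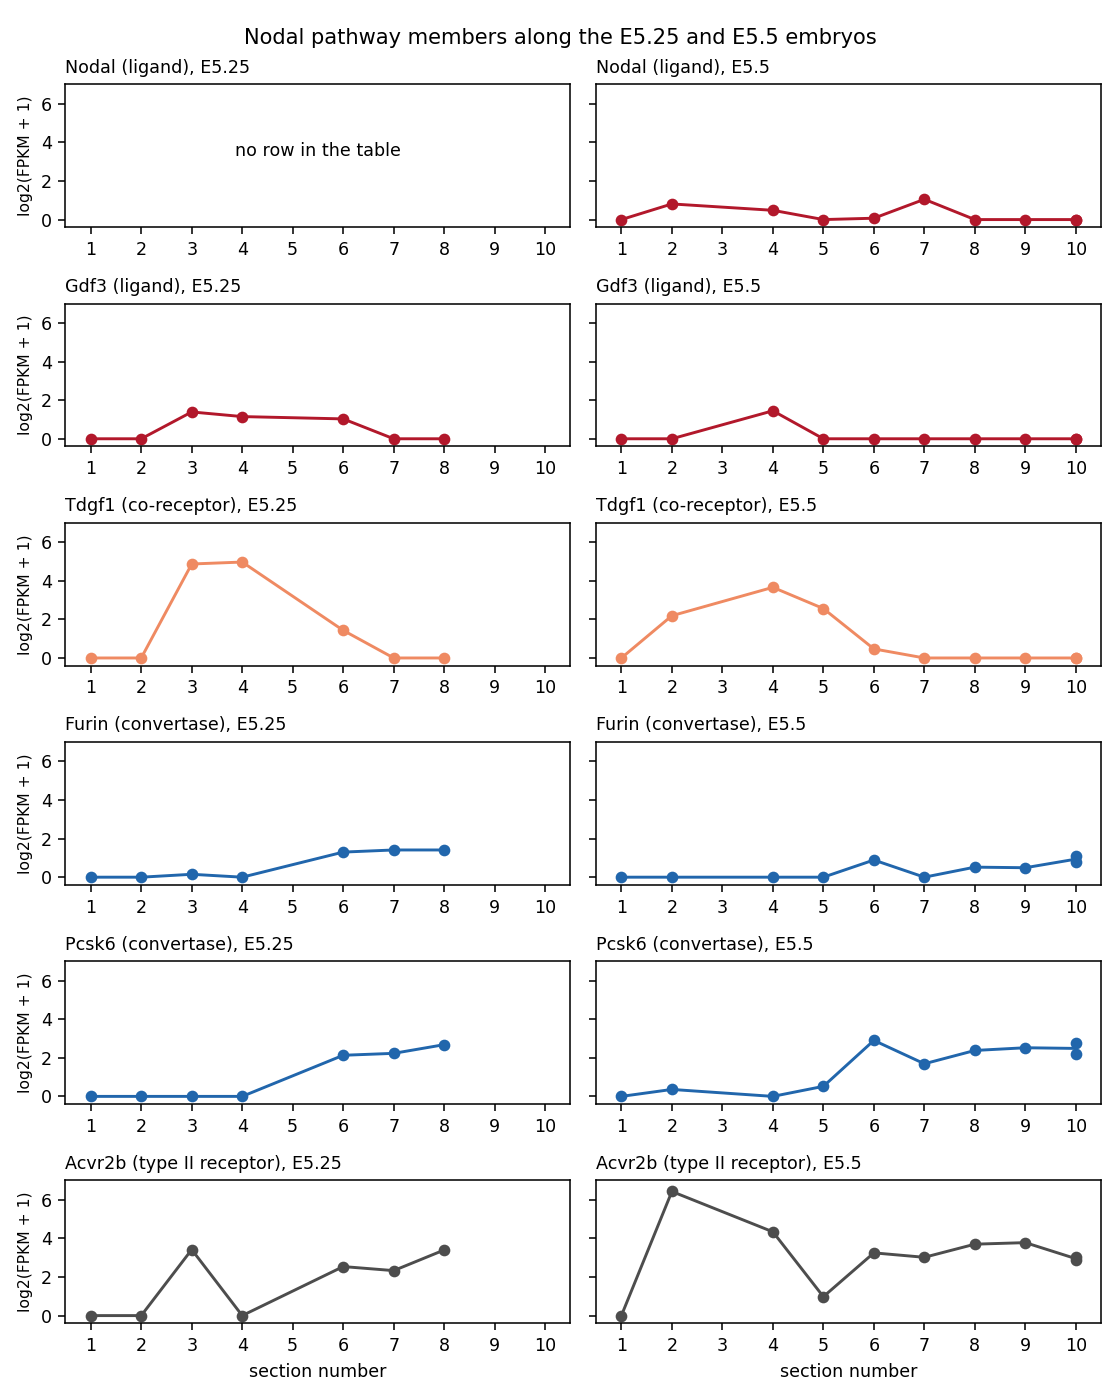
Level of each member (vertical axis, log2(FPKM + 1)) by section number (horizontal axis) at E5.25 (left) and E5.5 (right); points are deposited columns, and lines join sections, with both columns of section 10 of E5.5 averaged. Pcsk6 is at 0 in sections 1 to 4 of E5.25 and at 2.13 or above in sections 6 to 8, where Tdgf1 is at most 1.43.

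Within the E5.5 sections, Pcsk6 minus Nodal was 0 in section 1, -0.45 and -0.48 in sections 2 and 4, 0.52 in section 5, 2.83 in section 6, 0.64 in section 7, and between 2.38 and 2.52 in sections 8 to 10. Pcsk6 was thus the higher in 6 of 9 sections. The fitted change was 3.27 ± 0.89 (n = 9, exact permutation p = 0.012, adjusted p = 0.0161). The call was lost without sections 1 and 2 (2.67, adjusted p = 0.0968) and with detected genes in the fit (3.30, adjusted p = 0.184, permutation). Pcsk6 alone changed by 2.96 ± 0.79, and Nodal, which did not pass the filter, by -0.31 ± 0.42. The difference thus mostly repeats the rise of Pcsk6 and says little of the place of Nodal. Furin minus Nodal ran from -1.05 in section 7 to 0.93 in section 10, and its change of 1.13 ± 0.66 did not pass (exact permutation p = 0.131, adjusted p = 0.131).

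At E5.25 Nodal had no row, so its place relative to the enzymes could not be computed. Tdgf1 was at 4.87 in section 3, 4.97 in section 4 and 1.43 in section 6 (log2(FPKM + 1)), and at 0 in sections 1, 2, 7 and 8. Gdf3 was listed in the same 3 sections, at 1.39, 1.15 and 1.03. The co-receptor and Gdf3, the only member ligand with a row, were thus listed in the middle of the series. In sections 1 and 2, where neither was listed, Rn45s took 26.2% and 23.7% of the summed FPKM, the highest shares of the stage.

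Pcsk6 at E5.25 was at 0 in sections 1 to 4 and at 2.13, 2.23 and 2.68 in sections 6, 7 and 8. Furin was at 0.15 in section 3, at 0 in sections 1, 2 and 4, and at 1.30, 1.41 and 1.41 in sections 6, 7 and 8. For both, sections 6 to 8 lay above all lower-numbered sections. Acvr2b was at 3.42 in section 3, 2.54, 2.33 and 3.40 in sections 6 to 8, and 0 in sections 1, 2 and 4. The fitted changes were 3.13 ± 1.03 for Pcsk6 (adjusted p = 0.064), 1.76 ± 0.72 for Furin (adjusted p = 0.0948) and 2.89 ± 1.46 for Acvr2b (adjusted p = 0.159), and -1.15 ± 1.80 for Tdgf1 (adjusted p = 0.669) and -0.15 ± 0.73 for Gdf3 (adjusted p = 0.902). In limma, 0 of the 5 members tested passed, against a background of 0.406% of 7148 genes (0.378% rising and 0.028% falling), and 2 of the 5, Pcsk6 and Furin, had an unadjusted p under 0.05, as did 2493 of all genes. Pcsk6 passed without section 4 (3.06, adjusted p = 0.0455, limma). Both convertases reached 1 FPKM in sections 6 to 8 only, so they passed the filter only through the side where they were high. The direction of their changes thus describes where they were listed. Sections 6 to 8 had 5636 to 6461 detected genes and the others 2046 to 4282, and Furin and Pcsk6 correlated with detected genes at r = 0.92 and 0.89 over the 7 sections. With detected genes in the fit the changes were 0.99 for Furin (adjusted p = 0.786, limma) and 2.02 for Pcsk6 (adjusted p = 0.674).

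Because Nodal had no row at E5.25 and was low at E5.5, the convertases were also set against Tdgf1, a comparison chosen after the data had been seen. The fitted change of Furin minus Tdgf1 was 2.91 ± 2.94 at E5.25 (n = 7, exact permutation test, adjusted p = 0.357 over 6 tests), 2.80 ± 1.51 at E5.5 (n = 9, exact, adjusted p = 0.159) and 7.29 ± 1.47 at E5.75 (n = 17, permutation, adjusted p = 0.00258). That of Pcsk6 minus Tdgf1 was 4.28 ± 3.17 at E5.25 (adjusted p = 0.298), 4.95 ± 1.89 at E5.5 (adjusted p = 0.0799) and 7.42 ± 1.73 at E5.75 (adjusted p = 0.00405, permutation tests). Only the E5.75 differences passed. Without sections 1 and 2 all 4 tests at the earlier stages passed as well (7.42 for Furin and 8.85 for Pcsk6 at E5.25, adjusted p = 0.0333 and 0.02, and 4.28 and 5.89 at E5.5, adjusted p = 0.00714 and 0.0179, exact permutation tests). At E5.25 this left out sections where Tdgf1 and both convertases were unlisted. It kept section 4, which had the highest Tdgf1 but the fewest detected genes (2046, against 2607 in section 1 and 3374 in section 2). Whether the stages differ was not tested.

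The VE libraries were compared with the other libraries of the same sections, 6 and 7. Tdgf1 was at 0 in both VE libraries, against 4.40 and 5.47 in sections 6 and 7 (log2(FPKM + 1)). Furin was at 0 in both VE libraries, against 1.51 and 1.17 in the sections. The differences were -4.94 ± 0.55 for Tdgf1 (n = 2 each, adjusted p = 0.00791, limma) and -1.34 ± 0.16 for Furin (adjusted p = 0.00906). Each passed the filter only through the section libraries, which fixed the direction, so these values are a description and nothing is read from the calls. The background was 57.2% of 6413 genes called, 56.6% falling and 0.624% rising, with a median change of -2.09 over all genes. After quantile normalization neither passed (adjusted p = 0.0596 for Tdgf1 and 0.0819 for Furin, limma), and Furin did not pass against sections 3 to 8 (-0.61, adjusted p = 0.339) or in 1 fit over all E5.75 libraries (-0.92, adjusted p = 0.195). Without section 6 or without section 7 neither gene could be tested, since each then reached 1 FPKM in a single library.

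The other members were uneven between the VE libraries. Nodal was at 0 in the VE library of section 6 and 3.79 in that of section 7, against 2.71 and 1.80 in the sections (change -0.36 ± 1.58, adjusted p = 0.889). Acvr2b was likewise at 0 and 5.66 in the VE libraries, against 4.55 and 4.20 in the sections (-1.54 ± 2.34, adjusted p = 0.666). Pcsk6 was at 1.30 and 0 in the VE libraries, against 0.52 and 0.94, and Gdf3 at 0 in both, against 0.70 and 3.06, and neither passed the filter. For Nodal and Acvr2b the VE library of section 7 thus lay above, and that of section 6 below, both section libraries. With 1 VE library, assumed to vary like the others, Acvr2b passed in opposite directions, at 1.29 without the VE library of section 6 (adjusted p = 0.0213) and at -4.37 without that of section 7 (adjusted p = 0.000439), and Nodal passed only without that of section 7 (-2.26, adjusted p = 0.0175).

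Only 1496 and 2147 genes were detected in the VE libraries, and Rn45s took 62.2% and 48.8% of their summed FPKM. Of 15 visceral endoderm markers with a row, 6 and 9 were above 0 in the VE libraries of sections 6 and 7, against 11 in each section library. The list summed to 306.2 and 1113.8 FPKM in the VE libraries, against 58.0 and 45.7 FPKM in sections 6 and 7, led by Apoe at 7.99 and 9.22, a lipid carrier that other tissues also make. Afp, Foxa2, Gata4, Hnf4a and Rbp4 were at 0 in both VE libraries, and Amn and Ttr were at 7.71 and 6.44 in that of section 7 and at 0 in that of section 6. The parietal endoderm list, for a neighbouring endoderm layer, summed to 371 and 75 FPKM in the VE libraries of sections 6 and 7, against 16.9 and 13.4 FPKM in the sections. In the VE library of section 6 it thus exceeded the visceral endoderm list, with Lamb1 at 7.84, Sparc at 6.27 and Fst at 5.96. In the same library Gata6 was at 5.12, against 0 in both sections, and Apob at 3.55, against 0.52 and 0.43. The distal and anterior visceral endoderm list had 2 of 7 genes above 0 in each VE library. It summed to 46.8 and 3.69 FPKM there, against 18.3 and 28.2 FPKM in sections 6 and 7. By the count and sum of the visceral endoderm list, the label is met by part of its markers only, and less so in the VE library of section 6. Of 10 epiblast markers, 2 and 7 were above 0 in the VE libraries, summing to 207.7 and 530.6 FPKM, with Pou5f1 at 0 and 6.73. The VE library with Nodal at 3.79 was the one with more epiblast markers, and the part of epiblast RNA in that value was not tested.

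Other genes of the pathway were taken from lists. At E5.75, 1 of 4 tested genes for other ligands rose, Bmp8b, made by the extraembryonic ectoderm (2.72 ± 0.73, adjusted p = 0.0115, limma). Bmp4 was between 0 and 1.37 in sections 1 to 8, then at 6.85, 5.96 and 5.02 in sections 10 to 12 and at 0 to 3.08 beyond. Its straight-line change of 2.73 ± 1.32 did not pass (adjusted p = 0.141). Its peak lay in the first sections after those with Nodal. Bmp2 (1.63 ± 0.70, adjusted p = 0.0952) and Gdf1, a partner ligand of Nodal (-0.73 ± 0.79, adjusted p = 0.528), did not pass either.

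Among other receptors and co-receptors, 0 of 5 tested genes passed in limma, and 0 had an unadjusted p under 0.05. Tgfbr3, which had the smallest p of them, changed by -1.16 ± 0.57 (adjusted p = 0.145, limma), and Acvr1 by -0.45 ± 0.48 (adjusted p = 0.525). Acvr1b, the type I receptor ALK4, changed by 1.38 ± 0.73 (adjusted p = 0.173), and Cfc1, a relative of Cripto, by 0.98 ± 0.59 (adjusted p = 0.234). Among intracellular effectors 0 of 9 passed, and 4 had an unadjusted p under 0.05, as did 3963 of the 11149 genes tested. They were the inhibitory Smad7 (2.03 ± 0.74, adjusted p = 0.0529), the corepressors Skil (-1.83 ± 0.68, adjusted p = 0.0556) and Tgif1 (-2.76 ± 1.20, adjusted p = 0.1), and Tgif2 (1.72 ± 0.76, adjusted p = 0.108). The median change was -0.22 over the receptors and 0.03 over the effectors.

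Among known targets of the pathway 3 of 9 fell, beside 2.07% of all genes, and 1 rose, beside 18.9%, with a median of -1.42. Otx2, a homeobox gene of the epiblast and anterior visceral endoderm, was between 1.89 and 5.58 in sections 1 to 8 and at 0 from section 10 on (-5.38 ± 1.02, adjusted p = 0.000847, limma). Otx2 thus passed the filter only through the side where it was high. It is also on the epiblast marker list, of which 8 of 10 tested genes fell, and the part of tissue makeup in the targets' changes was not tested. Fgf8, a secreted growth factor, fell by 2.51 ± 0.67 (adjusted p = 0.0105, limma) and Lhx1, a homeobox gene, by 2.41 ± 0.83 (adjusted p = 0.0397). Lhx1 was at 52.9 FPKM in section 1, where Rn45s took 52.8% of the summed FPKM, with a mean of 3.52 and a median of 0 FPKM over the 17 sections. Lhx1 is also on the distal and anterior visceral endoderm list. Eomes, also a gene of the extraembryonic ectoderm, rose by 4.09 ± 1.05 (adjusted p = 0.00865) and was highest in sections 10 to 12, at 6.43, 6.19 and 6.20. The targets thus did not move 1 way.

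Among inhibitors, Lefty2 had no row at any stage and Lefty1 had one at E5.5 only, at 2.19 in section 2 and 0.65 in section 5. Cer1 and Dand5, secreted antagonists, did not pass the filter at E5.75. The 3 tested members, Ncln, Nomo1 and Tmem147, encode a complex of the endoplasmic reticulum that was named as a Nodal antagonist in zebrafish, and all 3 rose at E5.75 (2.37 ± 0.66, 2.14 ± 0.71 and 3.13 ± 1.01; adjusted p = 0.014, 0.0355 and 0.0305, limma), as 18.9% of all genes did.

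Of the other proprotein convertases at E5.75, 0 of 4 tested genes passed in limma, and 1, Pcsk7, had an unadjusted p under 0.05. The changes were 1.03 ± 0.49 for Pcsk7 (adjusted p = 0.132), 1.48 ± 0.74 for Pcsk5 (adjusted p = 0.154), 1.52 ± 0.78 for Mbtps1 (adjusted p = 0.161) and 0.06 ± 0.50 for Pcsk4 (adjusted p = 0.946). The list's median was 1.25, beside 0.80 over all genes. Mbtps1, the site-1 protease of the Golgi, had a mean of 9.46 FPKM, above the 3.46 FPKM of Pcsk6 and the 1.76 FPKM of Furin. Pcsk5 and Pcsk7, enzymes with the same kind of cleavage site as Furin, had means of 1.67 and 0.534 FPKM. Pcsk7 was at 0 in 9 of the 17 sections.

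**Figure D5:**
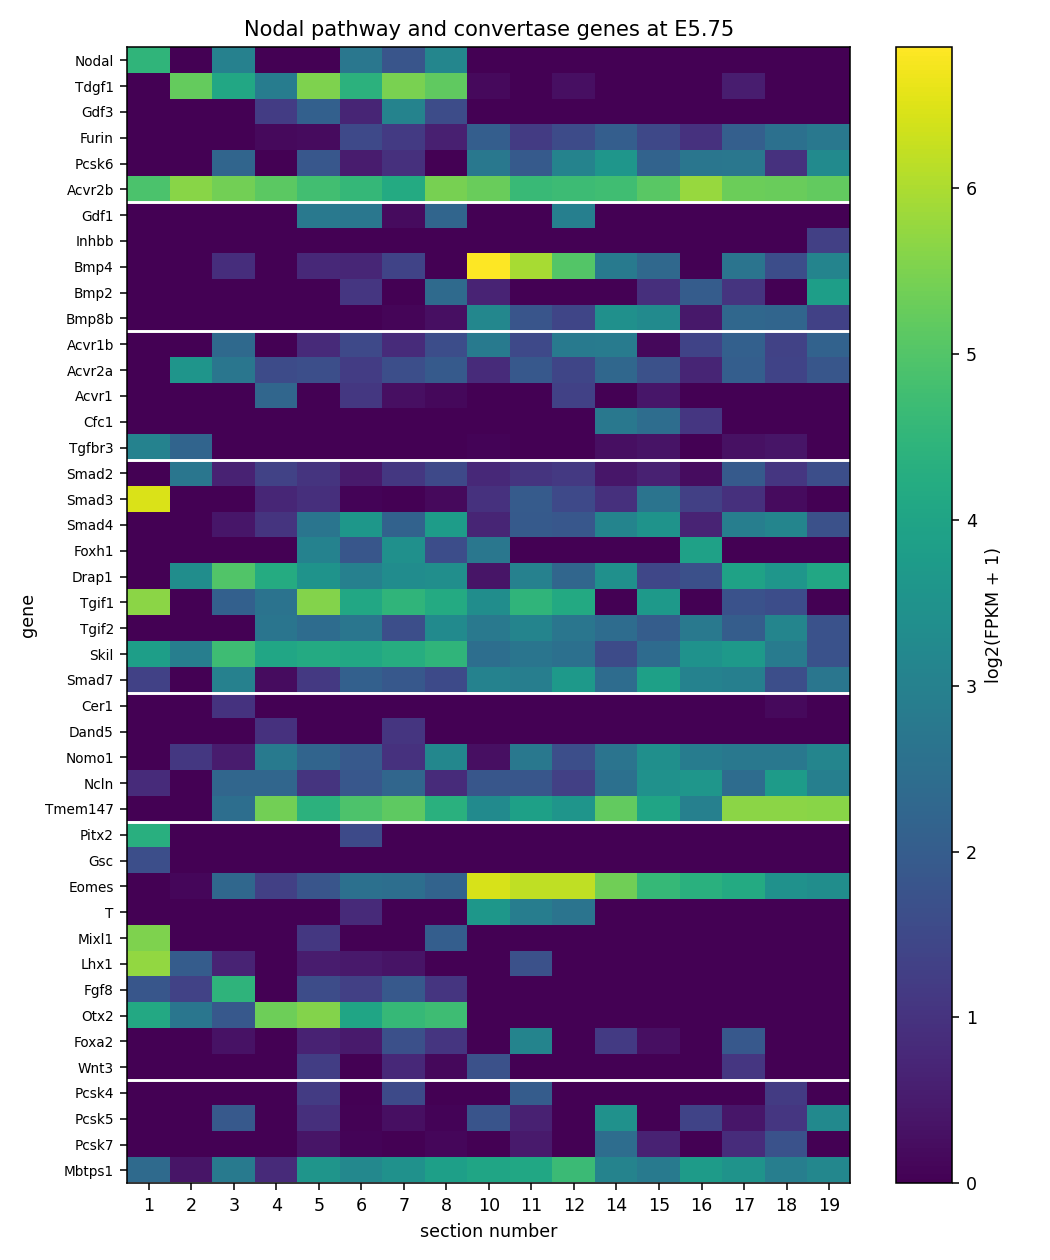
Level (colour, log2(FPKM + 1)) of pathway and convertase genes (rows, grouped by list from the 6 members down to other convertases) in the 17 E5.75 sections (columns, by section number). Bmp4 and Eomes are brightest in sections 10 to 12, where Nodal, Gdf3 and Otx2 are at 0.

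At E5.5 the same lists gave Bmp8b among ligands (rise of 4.31 ± 0.95, adjusted p = 0.00408, limma) and Lhx1 among targets (change of -6.28 ± 1.19, adjusted p = 0.00187). They also gave 3 of 7 effectors, 1 of 3 inhibitors (Tmem147, 5.08 ± 0.97, adjusted p = 0.00188) and 1 of 2 other convertases (Mbtps1, 3.18 ± 0.74, adjusted p = 0.00523), all rising, where 28.3% of all genes rose. The effectors were Drap1, Smad4 and Tgif2. Lhx1 was at 159 FPKM in section 1, where Rn45s took 69.8% of the summed FPKM, with a mean of 20.3 FPKM over the 9 section numbers. None of the genes on these lists passed at E5.25 in limma, where Bmp4 was at 4.98, 5.26 and 4.74 in sections 6 to 8 and at 0 in sections 1 to 4 (6.43 ± 1.54, unadjusted p = 0.000365, adjusted p = 0.0543). Of 17 list genes tested at E5.25, 8 had an unadjusted p under 0.05, as did 2493 of the 7148 genes tested.

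The genes most like Nodal over the 17 sections of E5.75, by Pearson r of log2(FPKM + 1) among 3906 named genes with a mean of at least 5 FPKM, were Zfp266 (r = 0.82), Enpp2 (0.82), Sox11 (0.80), Cdc14b (0.78) and Hnrnpu (0.77). Those most like Furin were Yrdc, Rnaset2b and Pea15a (0.92 each) and Sri and Mpzl2 (0.91 each). Those most like Pcsk6 were Cln6 (0.88), Azi2 (0.84), Ahnak (0.83), Klhl22 (0.82) and Zfp42 (0.82), the last also on the extraembryonic ectoderm list. The nearest genes at E5.5, over 9 sections, were Ncln for Nodal (0.79), Tm2d1 for Furin (0.94) and Scamp3 for Pcsk6 (0.98). These are descriptions over sections of a stage, which share depth, and no gene was the nearest of the same member at both stages. Furin and Pcsk6 correlated with each other at r = 0.99 over 7 sections at E5.25 and 0.87 over 9 at E5.5.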

How the data were processed

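Laser captured sections of mouse embryos were sequenced with Smart-seq2, per the labels' protocols. Per the submitters' processing notes, build mm10, Cufflinks 2.0.2 and TopHat2 2.0.4 were used. Their roles, the annotation and the normalization are not given in the sources used here. The deposited values, read here as log2(FPKM + 1), rest on the table names and their range. No counts are held, so depth is unknown. All 36 columns were used. At E5.5 the last 2 columns were averaged as section 10, as their titles say, although 1 source name gives section 11.

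The members and gene lists were chosen with earlier results of these data known. Genes with at least 1 FPKM in at least 2 fitted columns entered 2-sided eBayes fits with a mean-variance trend (limma 3.58.1 in R 4.3.3), with Benjamini-Hochberg adjustment over all of them and a threshold of 0.05. The model for a stage was a straight line in its section numbers, scaled from 0 to 1. VE was compared with sections 6 and 7, 2 against 2. Convertase minus ligand was tested by permuting section numbers, exactly up to 9 sections and otherwise with 100000 resamples; with detected genes in that fit, residuals on them were permuted. From the pathway lists, at most 4 genes each with the smallest p at E5.75 are given with values. Values given for list genes at the earlier stages, and those of Lefty1, were chosen after they were seen. One gene of the list of other convertases is not reported here. The 5 most similar genes had a mean of at least 5 FPKM.

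Fits were tested on simulated data with normal noise, no floor and, for the sections, slopes added only to genes with high means. That does not cover members with low means and values at the floor. VE libraries share section numbers 6 and 7 with section libraries. The correlation of the deviations of the section 6 pair over 6413 genes was 0.000773, and with 2 pairs it does not settle whether samples pair. Alternatives were other pseudocounts (0.1 and 5), filters, scalings, variance models, a detection covariate, a spline, sections above against below the midpoint, and leaving out sections. Python 3.11.15 and matplotlib 3.10.9 drew the figures.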

Additional observations from a re-analysis of the deposited data

How the results depend on the processing

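At E5.75 the fall of Tdgf1 and the difference of Furin from Nodal kept direction and call in every alternative run, 30 and 24 of them. Pcsk6 minus Nodal lost its call in 1 of 24, where detected genes entered the fit (4.54, permutation, adjusted p = 0.0739). This covariate and quantile normalization were added for the differences after the data had been seen. The number of members called at E5.75, 4 as reported, was 1 with detected genes as a covariate, 2 without sections 1 and 2, and 2 to 4 when each section was left out in turn. With that covariate Nodal changed by -2.30 (adjusted p = 0.345, limma), and with a spline by -2.65 (adjusted p = 0.0649). At E5.5 the number, 1 as reported, was 0 with a filter at 5 FPKM, 0 with quantile normalization, 0 with the covariate, 2 for sections above against below the midpoint, and 1 to 2 with sections left out in turn. At E5.25 it was 0 as reported, 1 with a pseudocount of 0.1, 2 above against below the midpoint, and 0 to 1 with sections left out. In the VE comparison it was 2 as reported, 1 with a filter at 5 FPKM, 0 with quantile normalization, 1 against sections 3 to 8, and 0 to 4 with libraries left out. With section as a replicate block, 2 members were called there as well, Tdgf1 (-4.94, adjusted p = 0.022) and Furin (-1.34, adjusted p = 0.0216), and no other member's call changed.

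Genes called in all numbered 29 at E5.25, against 0 to 1476 over the alternatives, 2547 at E5.5 against 0 to 3253, 2339 at E5.75 against 624 to 2785, and 3671 in the VE comparison against 0 to 5624. The lowest counts came with quantile normalization or the covariate, and at E5.25 also with a pseudocount of 5, no filter or robust eBayes.

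Signs turned only for changes that had not passed. At E5.25 Tdgf1 was 1.64 with the covariate, and Gdf3 was 0.11, 0.14 and 0.33 without sections 3, 7 and 8 (lowest of its leave-one-out values -0.73). Acvr2b at E5.5 was -0.37 with a pseudocount of 5, -0.22 rescaled without Rn45s, -0.92 with quantile normalization, -4.38 with the covariate and -2.26 without section 1 (highest 2.78), and at E5.75 -0.08 rescaled without Rn45s and -0.17 with quantile normalization. In the VE comparison Nodal was 0.09 with a pseudocount of 5, 0.98 with quantile normalization, 0.12 against sections 3 to 8, 0.65 in 1 fit over all E5.75 libraries, 0.09 without section 6 and 1.53 without the VE library of section 6, where Acvr2b was 1.29 (lowest -4.37).

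At E5.5 Pcsk6 minus Nodal was 2.67 without sections 1 and 2 (exact permutation, adjusted p = 0.0968) and 3.30 with the covariate (adjusted p = 0.184; 3.02 to 3.44 leaving out 1 section), and Furin minus Nodal was 1.34 without section 7 (adjusted p = 0.0249; 0.76 to 1.48). Against Tdgf1, Furin at E5.25 turned to -0.65 with the covariate (adjusted p = 0.949). Pcsk6 at E5.5 reached 10.36 with a pseudocount of 0.1 (adjusted p = 0.0497), Spearman rho was 0.78 for both convertases (adjusted p = 0.0261), and leaving out 1 section gave 2.19 to 4.35 for Furin and 4.16 to 6.28 for Pcsk6, passing without section 1 (adjusted p = 0.0215 each, exact permutation). Without sections 1 and 2 the values were 7.42 and 8.85 at E5.25 and 4.28 and 5.89 at E5.5 for Furin and Pcsk6. The cause of these changes was not tested.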
